A study of Homo sapiens with 12 samples.

Results

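The long noncoding snoRNA host genes are the 32 genes whose symbol in the files is SNHG followed by a number, or is GAS5, ZFAS1, EPB41L4A-AS1 or DANCR. They were chosen by name from the 60660 genes of each library, without regard to their values. RNA was sequenced from Kelly, a MYCN-amplified neuroblastoma cell line of adrenergic character, in 3 derived lines that each express a short hairpin RNA (shRNA) when doxycycline is added. The shRCOR1 line carries an shRNA against RCOR1, the shRCOR2 line one against RCOR2, and the shCTRL line a non-targeting one. Each line was left untreated or induced with 2 µg/mL doxycycline, with 2 replicate libraries per group, so 6 groups and 12 libraries. RCOR1 and RCOR2 encode related scaffold proteins that hold the histone demethylase KDM1A and histone deacetylases together. The induced samples are labelled 72 h, whereas the treatment protocol gives 24 or 48 h. Whether each line is a clone or a pool, and whether replicates are separate cultures, is not given in the labels, so p-values here reflect only how far these samples scatter, which may be technical.

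Small nucleolar RNAs (snoRNAs) guide the chemical modification of ribosomal and spliceosomal RNA. Box C/D snoRNAs guide 2'-O-methylation with the methyltransferase fibrillarin, and box H/ACA snoRNAs guide pseudouridylation with dyskerin, the product of DKC1. In human cells most are cut out of the introns of longer transcripts. A snoRNA host gene of the kind described here gives a snoRNA from its introns and a spliced RNA from its exons that codes for no known major protein. Many of these spliced RNAs are translated over short reading frames and degraded by nonsense-mediated decay, and several begin with a terminal oligopyrimidine (TOP) tract, as the mRNAs of ribosomal proteins do. The values below are abundances of these gene models in TPM, a share of the RNA corrected for gene length, and mature snoRNAs are largely too short to be retained in such libraries. As these are bulk samples, fewer cells with a transcript and less of it per cell cannot be told apart.

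The snoRNAs of 6 host genes that changed are shown because they are what these loci are known for. They were read from GENCODE v29 (build GRCh38), 5' to 3' on the plus strand. Capitals mark, in box C/D snoRNAs, the first TGATGA where it lies near the 5' end (box C) and the last CTGA where it lies near the 3' end (box D), and in H/ACA snoRNAs an ACA lying 3 bases from the 3' end. Other copies of these letters are left in lower case. ZFAS1 holds 3 box C/D snoRNAs (SNORD12C at chr20:49278940-49279028, SNORD12B at chr20:49280319-49280409 and SNORD12 at chr20:49280683-49280772), and SNHG32 holds 2 (SNORD48 at chr6:31835263-31835326 and SNORD52 at chr6:31837076-31837142). SNHG26 holds SNORD93 at chr7:22856613-22856686, DANCR SNORA26 at chr4:52713249-52713370 and SNHG11 SNORA60 at chr20:38449370-38449503. SNHG3 holds 2 closely similar H/ACA snoRNAs, SNORA73A at chr1:28507366-28507571 and SNORA73B at chr1:28508559-28508762.
SNORD12C: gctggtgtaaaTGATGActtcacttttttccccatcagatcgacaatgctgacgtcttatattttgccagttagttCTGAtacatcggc
SNORD12B: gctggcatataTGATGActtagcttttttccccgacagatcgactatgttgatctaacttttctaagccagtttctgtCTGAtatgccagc
SNORD12: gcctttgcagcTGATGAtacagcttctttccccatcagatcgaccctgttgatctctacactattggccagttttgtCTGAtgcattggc
SNORD48: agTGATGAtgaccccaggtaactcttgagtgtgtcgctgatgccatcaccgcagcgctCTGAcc
SNORD52: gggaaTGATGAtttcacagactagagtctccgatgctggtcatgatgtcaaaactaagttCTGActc
SNORD93: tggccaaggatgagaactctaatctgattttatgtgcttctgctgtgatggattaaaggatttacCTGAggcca
SNORA26: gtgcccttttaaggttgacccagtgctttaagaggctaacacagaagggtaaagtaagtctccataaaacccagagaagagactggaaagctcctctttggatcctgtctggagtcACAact
SNORA60: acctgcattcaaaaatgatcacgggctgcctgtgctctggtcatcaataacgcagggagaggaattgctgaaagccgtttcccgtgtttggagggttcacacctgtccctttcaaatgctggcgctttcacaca
SNORA73A: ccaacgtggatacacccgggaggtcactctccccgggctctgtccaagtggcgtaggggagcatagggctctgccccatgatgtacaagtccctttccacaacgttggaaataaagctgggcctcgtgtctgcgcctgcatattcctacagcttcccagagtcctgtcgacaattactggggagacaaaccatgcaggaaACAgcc
SNORA73B: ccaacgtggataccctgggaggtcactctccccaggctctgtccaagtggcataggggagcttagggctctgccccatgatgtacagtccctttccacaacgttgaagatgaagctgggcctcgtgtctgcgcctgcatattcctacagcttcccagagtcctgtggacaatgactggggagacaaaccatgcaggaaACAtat

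The 3 ZFAS1 snoRNAs and the 2 of SNHG32 carry both box letters in full. SNORD93 shows the box D letters only. SNORA60 has no capitals, since its ACA does not lie at exactly that distance from the annotated end. Of the 32 host genes, 30 overlap at least 1 gene named SNORD, SNORA or SCARNA on the same strand in the files. Among them, 17 hold exactly 1 and SNHG14 holds 84. GAS5, for which no snoRNA is printed above, and SNHG28 overlap none in the files.

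The first transcribed bases are shown because the host genes differ there. Each line gives 10 bases before and 20 bases from the RefSeq start on (build GRCh38.p14), read along the gene's strand. Capitals mark a TOP start, defined here as C at the start followed by at least 4 pyrimidines (C or T). The windows are chr20:49278632-49278661 (plus), chr6:31834906-31834935 (plus), chr6:85678714-85678743 (minus), chr16:2155339-2155368 (minus), chr1:173869026-173869055 (minus), chr1:28505933-28505962 (plus), chr4:52712384-52712413 (plus), chr7:22854230-22854259 (plus) and chr20:38446644-38446673 (plus).
ZFAS1: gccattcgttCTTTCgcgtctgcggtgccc
SNHG32: cattttagttCTTTTTgcgaagtgggctcg
SNHG5: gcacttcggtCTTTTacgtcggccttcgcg
SNHG19: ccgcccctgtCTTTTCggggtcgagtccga
GAS5: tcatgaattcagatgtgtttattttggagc
SNHG3: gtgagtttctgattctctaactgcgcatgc
DANCR: tgcgcgccccgcccttgcccagagtcttcc
SNHG26: taaacttgatctccgcagtgccctcccttt
SNHG11: gctctaggctgcagccgcgcccccagccgt

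The 4 TOP starts shown open alike, with CTTT. Those of SNHG4, SNHG12 and SNHG18, which are not shown, do not open with CTTT. Of the 28 host genes matched to the RefSeq promoter table, 7 had a TOP start (ZFAS1, SNHG32, SNHG5, SNHG19, SNHG4, SNHG12 and SNHG18). That is 25% of them, against 4.07% of all 35116 promoters in the table. SNHG6, SNHG15, SNHG25 and SNHG9 were not matched. A start is 1 annotated position: the RefSeq start of GAS5 lies 163 bases before the start of its gene model in the files, and that of ZFAS1 lies 464 bases inside its model. The E-box letters CACGTG, a known binding sequence of MYC-family factors and the same on both strands, occur between 250 bases before and 50 after the start in SNHG7 (122 bases before the start) and SNHG30 (65 bases before). That is 7.14% of the host genes matched, against 7.26% of all promoters.

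The host genes spanned a wide range of levels in these cells. In the untreated libraries GAS5 and SNHG29, each a known host of several box C/D snoRNAs, stood highest. GAS5 had 704.2 ± 76.88 TPM and SNHG29 786.2 ± 50.45 TPM (SD over the 6 untreated libraries). Their ranges overlapped, at 608.1 to 824.4 and 735.6 to 850.1 TPM. A wide gap separated them from the next pair, SNHG5 at 236 ± 28.04 TPM and SNHG6 at 222.3 ± 15.42 TPM, which also overlapped. SNHG7 (176.9 ± 23.77 TPM), SNHG1 (161.9 ± 21.15 TPM), SNHG17 (136.9 ± 3.102 TPM) and ZFAS1 (134.4 ± 12.1 TPM) followed. Each of these overlapped its neighbour in the order. The 8 genes with the highest mean over all 12 libraries made up 75.8% to 83.8% of the TPM of all 32.

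SNHG16 (mean over 12 libraries 136.9 TPM), SNHG15 (89.51), SNHG8 (72.71), DANCR (70.57), SNHG3 (56.7) and SNHG4 (56.24) formed a middle tier. SNHG14 (42.28 TPM), the long paternally expressed transcript of the Prader-Willi region, stood with SNHG12 (41.8), SNHG19 (40.85), SNHG25 (29.54), SNHG32 (29.52) and SNHG20 (20.73). Below 20 TPM in the mean were EPB41L4A-AS1 (19.47), SNHG22 (15.67), SNHG10 (13.76), SNHG11 (10.32), SNHG9 (8.936), SNHG30 (8.153), SNHG21 (5.89) and SNHG26 (4.014). SNHG18 (0.7118 TPM) was near the limit. Of the 32 genes, 29 reached 1 TPM in at least 2 libraries and were tested. SNHG31 (at most 1.07 TPM), SNHG28 (at most 0.28) and SNHG27 (at most 0.0935) did not.

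**Figure D1:**
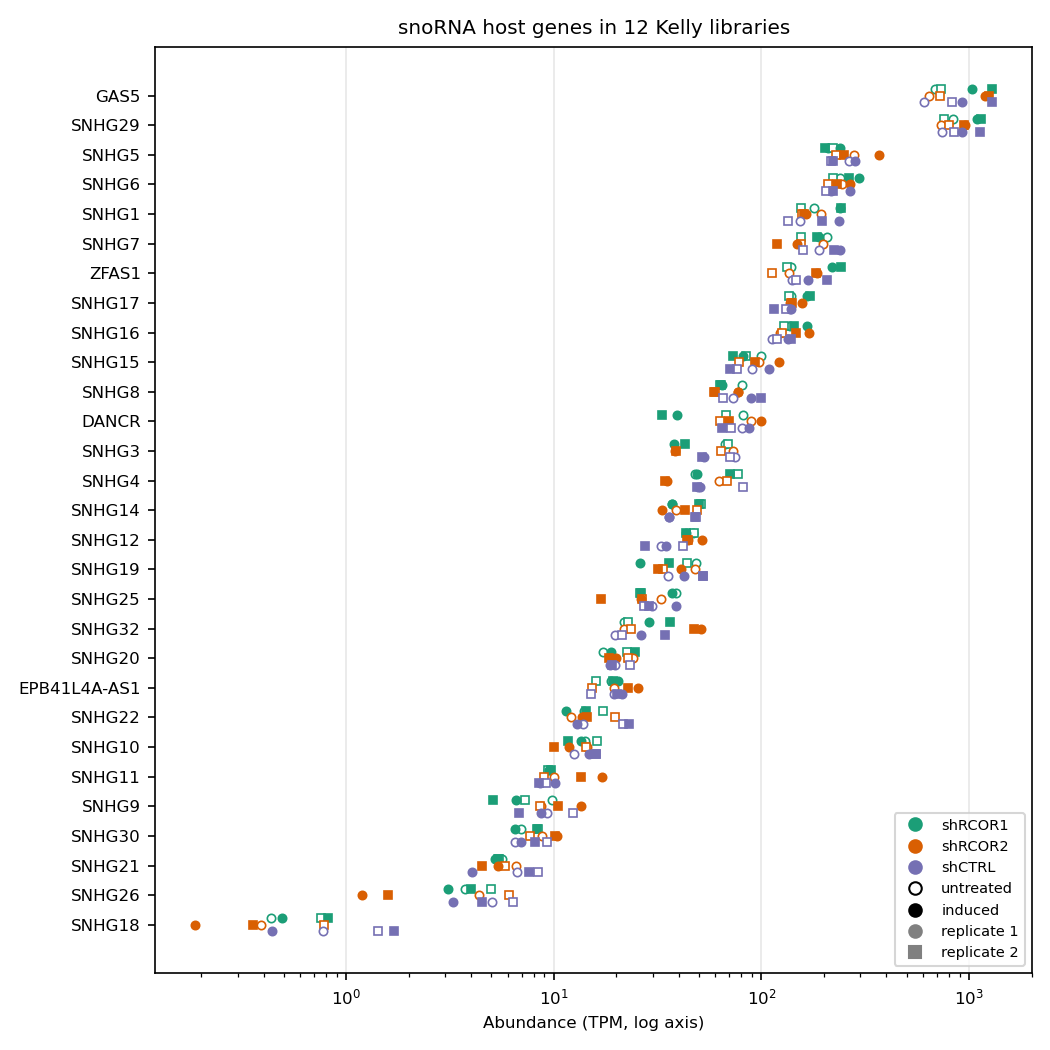
Abundance of the 29 tested host genes in each of the 12 libraries, in TPM on a log axis; colour marks the line, open and filled symbols untreated and induced cells, and shape the replicate. GAS5 and SNHG29 lie above 600 TPM in every library, while SNHG18 lies below 2 TPM.

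The files hold no read counts, so the number of reads behind a value is unknown. The deepest library had about 2.17 times the depth of the shallowest, by the ratio of coverage to FPKM. RCOR1 fell in the induced shRCOR1 line (8.321 and 9.084 TPM untreated, 4.795 and 5.066 induced; log2 change -0.71 ± 0.12 SE, limma adjusted p = 0.0109). RCOR2 fell in the induced shRCOR2 line (55.42 and 49.89 TPM, then 17.73 and 20.48; -1.42 ± 0.11, limma adjusted p = 0.000403). It also fell in the induced shRCOR1 line (51.36 and 50.48 TPM, then 25.99 and 26.3; -0.94 ± 0.11, limma adjusted p = 0.00278), so both knockdown lines had less RCOR2. All 9 adrenergic markers were present in every library. Their summed TPM went from 5924 and 5980 down to 3576 and 3822 in shRCOR2, from 6148 and 6249 down to 4910 and 5028 in shRCOR1, and from 5275 and 6015 to 4449 and 5869 in shCTRL (lowest and highest library). MYCN made up much of that sum and fell in shRCOR2 (3020 and 2677 TPM untreated, 1269 and 1042 induced). The 6 mesenchymal markers summed to 91.8 to 153 TPM untreated and 216 to 424 induced in shRCOR1, 92.5 to 195 and 71.6 to 88.4 in shRCOR2, and 124 to 345 and 136 to 407 in shCTRL. The 4 epithelial markers summed to 8.16 to 8.22 TPM untreated and 14.8 to 18.1 induced in shRCOR1, 6.09 to 7.91 and 9.84 to 12.9 in shRCOR2, and 7.74 to 10.2 and 6.19 to 10.8 in shCTRL, with CDH1 listed at 0 in every library. The endothelial markers summed to at most 2.59 TPM and the leukocyte markers to at most 0.22 TPM, with CD3E at 0. The part of these marker shifts in the results below was not tested.

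Summed over the 32 genes, host RNA was higher in induced than in untreated cells of all 3 lines, the control line included. The sum was 3325 ± 75.4 TPM untreated and 4162 ± 208 induced in shRCOR2 (SD, n = 2), a ratio of 1.25. It was 3372 ± 105 and 4318 ± 200 TPM in shRCOR1 (ratio 1.28), and 3325 ± 194 and 4181 ± 274 TPM in shCTRL (ratio 1.26). Most of the gain lay in GAS5 and SNHG29, since without them the ratios were 1.06, 1.1 and 1.13. The rest of the family went both ways, as the gene by gene results show.

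In the shRCOR2 line, induction went with more GAS5, ZFAS1, SNHG32 and SNHG11 RNA and less SNHG3 and SNHG26 RNA. Thus 4 of the 29 tested host genes rose and 2 fell at an adjusted p below 0.05 (limma on log2(TPM + 1), Benjamini-Hochberg over all 16842 genes tested). Over all genes 14.3% were called in this comparison, 7.81% higher and 6.47% lower. The host genes' median log2 change was 0.10, beside 0.07 over all genes tested, and 15 were higher and 14 lower by sign. In a fit with the replicate number as a block, 7 host genes rose and 6 fell, where 36.2% of all genes were called (21.4% higher, 14.8% lower). After median-of-ratios scaling, 3 rose and 3 fell, but the share of all genes called under that scaling was not counted. For no host gene did limma call the change in shRCOR2 different from that in shCTRL, as given below.

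SNHG32, also known as C6orf48, the host of SNORD48 and SNORD52, moved most upward. It had 21.71 and 23.61 TPM in untreated and 50.88 and 47.21 TPM in induced shRCOR2 cells, a log2 change of 1.08 ± 0.15 (SE; limma adjusted p = 0.00372). Both induced libraries lay above every untreated library of the series. GAS5, whose spliced RNA is known to accumulate when growth stops, had 640.2 and 727.8 TPM before and 1197 and 1250 TPM after induction. Its change was 0.84 ± 0.20 (limma adjusted p = 0.0264), and the groups did not overlap. This call is lost without any 1 of the 4 shRCOR2 libraries (limma adjusted p 0.091 to 0.143).

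ZFAS1, the host of 3 SNORD12 family snoRNAs, had 136.1 and 111.8 TPM untreated and 185.7 and 183.2 TPM induced. It rose by 0.58 ± 0.13 (limma adjusted p = 0.0215). The call is lost without untreated replicate 2 or either induced library (limma adjusted p 0.108 to 0.143). SNHG11, a host of SNORA60, had 10.06 and 8.942 TPM untreated and 17.06 and 13.49 TPM induced (0.63 ± 0.14, limma adjusted p = 0.0231). It lost the call without either untreated library or induced replicate 1, and the other 2 lines lay at 8.517 to 10.13 TPM throughout.

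SNHG3, the host of the SNORA73 pair, had 72.76 and 63.63 TPM untreated and 38.37 and 38.76 TPM induced. It fell by 0.80 on the log2 scale (SE 0.10, limma adjusted p = 0.00237), and the groups did not overlap. SNHG26, a low-abundance host of SNORD93, went from 4.379 and 6.049 TPM to 1.188 and 1.596 TPM. Its change of -1.37 ± 0.22 (limma adjusted p = 0.00673) is on a scale with a pseudocount of 1, which understates changes of such low genes. The adjusted p was 0.0593 without untreated replicate 2 and 0.0667 without induced replicate 1.

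A further 7 host genes were called in shRCOR2 only with the replicate block. SNHG29 (log2 change 0.31, limma adjusted p = 0.139, with the block 0.0342), SNHG16 (0.35, 0.0621 and 0.0169) and EPB41L4A-AS1 (0.47, 0.0877 and 0.00685) were higher. SNHG4, a host of SNORA74A, was lower, at 62.5 and 68.27 TPM untreated and 34.96 and 34.33 TPM induced (-0.90 ± 0.28, limma adjusted p = 0.0646, with the block 0.00854). SNHG25 (-0.46, 0.307 and 0.016), SNHG7 (-0.40, 0.18 and 0.013) and SNHG14 (-0.21, 0.625 and 0.0373) were lower too. SNHG7 had 197.4 and 155.1 TPM untreated and 147.6 and 119.1 TPM induced.

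The other 4 of the 8 most abundant genes were not called in shRCOR2 by either fit. SNHG5 had 278.3 and 228.3 TPM untreated and 369.1 and 249.2 TPM induced (0.27 ± 0.21, limma adjusted p = 0.451). SNHG6 had 243.2 and 210 TPM, then 267.3 and 232.1 (0.14 ± 0.13, limma adjusted p = 0.533). SNHG1, the host of several box C/D snoRNAs, had 193.2 and 156.7 TPM, then 164.8 and 160.8 (-0.10 ± 0.14, limma adjusted p = 0.709). The SNHG17 values were 137.5 and 138.9 TPM, then 157.1 and 139.7 (0.10 ± 0.11, limma adjusted p = 0.592). The SNHG5, SNHG6 and SNHG1 groups overlapped.

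**Figure D2:**
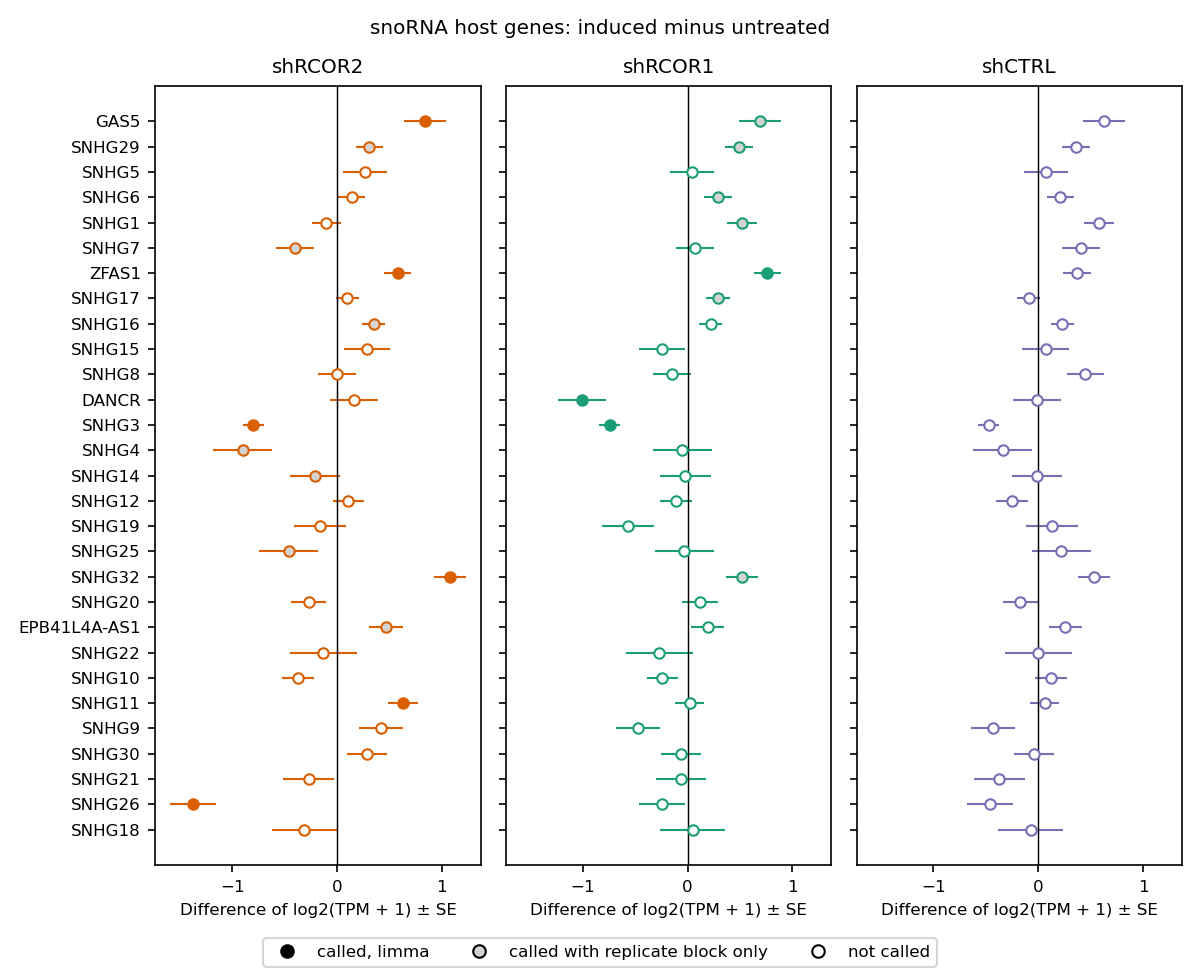
Induced minus untreated difference of log2(TPM + 1) for the 29 tested host genes in each line, ordered by mean TPM; bars are ± 1 SE from limma, filled symbols are called by limma, grey ones with the replicate block only. In shCTRL no symbol is filled, and GAS5 lies at 0.84, 0.69 and 0.63 in shRCOR2, shRCOR1 and shCTRL.

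In the shRCOR1 line, ZFAS1 rose and DANCR and SNHG3 fell. That is 1 host gene higher and 2 lower of 29, where 8.62% of all genes tested were called (4.98% higher, 3.64% lower). The median log2 change of the host genes was -0.02, beside 0.04 over all genes, with 14 higher and 15 lower by sign. With the replicate block 7 rose and 2 fell, where 27.4% of all genes were called (15.4% higher, 12.1% lower). After median-of-ratios scaling, 3 rose and 1 fell, again without a share of all genes to set beside them.

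ZFAS1 had 139 and 132.2 TPM in untreated and 219.2 and 242.7 TPM in induced shRCOR1 cells (0.76 ± 0.13, limma adjusted p = 0.00972). The call is lost without either untreated library or without induced replicate 2 (limma adjusted p 0.0642 to 0.0869). SNHG3 had 66.9 and 69.35 TPM untreated and 37.93 and 42.93 TPM induced. This fall was close in size to that in shRCOR2 (-0.74 ± 0.10, limma adjusted p = 0.00396). DANCR, the host of SNORA26, whose RNA is known for holding progenitor cells undifferentiated, had 81.26 and 67.37 TPM untreated and 39.37 and 33.34 TPM induced. It fell by 1.01 on the log2 scale (SE 0.23, limma adjusted p = 0.0317, with the block 0.000292). The 2 induced shRCOR1 libraries had the lowest DANCR values of the 12, and the other 10 lay at 63.07 to 99.87 TPM. Without any 1 of the 4 shRCOR1 libraries the DANCR call is lost (limma adjusted p 0.0859 to 0.195).

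A further 6 host genes rose in shRCOR1 only with the replicate block. GAS5 had 689 and 735.6 TPM untreated and 1028 and 1292 TPM induced (0.69 ± 0.20, limma adjusted p = 0.0681, with the block 0.00231). SNHG29 had 839.2 and 754.6 TPM, then 1095 and 1136 (0.49 ± 0.13, limma adjusted p = 0.0507, with the block 0.00726). SNHG1 had 179.8 and 154.8 TPM, then 238.3 and 240.6 (0.52 ± 0.14, limma adjusted p = 0.0555, with the block 0.00335). In all 3 the induced libraries lay above the untreated ones. SNHG32 had 21.73 and 22.73 TPM, then 28.66 and 36.22 (0.52 ± 0.15, limma adjusted p = 0.0725, with the block 0.0119). SNHG6 had 237.8 and 221.4 TPM, then 295.6 and 265.1 (0.29 ± 0.13, limma adjusted p = 0.226, with the block 0.012). SNHG17 had 139.5 and 136.3 TPM, then 165.2 and 172.1 (0.29 ± 0.11, limma adjusted p = 0.137, with the block 0.0335). SNHG5 (210 and 220.4 TPM, then 239.5 and 203.4) and SNHG7 (207 and 154.4 TPM, then 189.9 and 185.1) overlapped between the groups.

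In the shCTRL line no host gene was called, and 0% of all genes were called by limma. At an unadjusted p below 0.05 there were 8 host genes of 29, and 5.57% of all genes tested. With the block 13 host genes and 15.7% of all genes passed that unadjusted level, 0 host genes were called, and 0.0594% of all genes were called (0.0297% higher and 0.0297% lower). The host genes' median change was 0.07, beside -0.02 over all genes, with 16 higher and 13 lower by sign.

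Several of the same genes nevertheless had separated groups in the control line. GAS5 had 608.1 and 824.4 TPM untreated and 928.8 and 1286 TPM induced (0.63 ± 0.20, limma adjusted p = 0.871). SNHG29 had 739.9 and 850.1 TPM, then 927 and 1125 (0.36 ± 0.13, limma adjusted p = 0.871). SNHG1 had 153.4 and 133.8 TPM, then 235.5 and 195.1 (0.58 ± 0.14, limma adjusted p = 0.791). In these genes every induced control library lay above both untreated ones. SNHG7 had 189.5 and 158.1 TPM, then 238.5 and 223.6 (0.41 ± 0.18, limma adjusted p = 0.885). SNHG3 had 74.97 and 70.61 TPM, then 52.62 and 51.61 (-0.47 ± 0.10, limma adjusted p = 0.782), the clearest separation downward. ZFAS1 had 140.8 and 146.7 TPM, then 168.2 and 207.2 (0.37 ± 0.13, limma adjusted p = 0.871), and SNHG32 had 19.6 and 21.4 TPM, then 26.29 and 34.15 (0.53 ± 0.15, limma adjusted p = 0.825). Of the remaining abundant genes, SNHG6 (217.1 and 204 TPM, then 267.5 and 221.6) was separated. SNHG5 (263.4 and 215.8 TPM, then 282.5 and 220.7) and SNHG17 (137.9 and 131 TPM, then 138.1 and 115.2) overlapped.

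Across the 3 lines, 6 host genes had both induced libraries above both untreated ones in every line: GAS5, SNHG29, ZFAS1, SNHG16, SNHG32 and EPB41L4A-AS1. Over all genes tested, 356 did so (2.11%). SNHG3 was the 1 host gene with induced below untreated in every line, as were 425 genes (2.52%). Within single lines, 10 host genes lay above and 9 below in shRCOR2, where 37.6% of all genes lay above and 25.7% below. In shRCOR1 10 lay above and 8 below (29.4% and 23.7% of all genes), and in shCTRL 10 above and 4 below (7.99% and 15.6%). SNHG5, SNHG14 and SNHG22 overlapped in all 3 lines, and the share of all genes that did so was not counted. Called in the same direction in both knockdown lines were ZFAS1 and SNHG3, and with the block also GAS5, SNHG29 and SNHG32. Over all genes tested, 1.27% were so called by limma and 7.04% with the block. In all, 22 of the 29 tested genes were called by limma in no line, as were 79.4% of all genes tested.

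**Figure D3:**
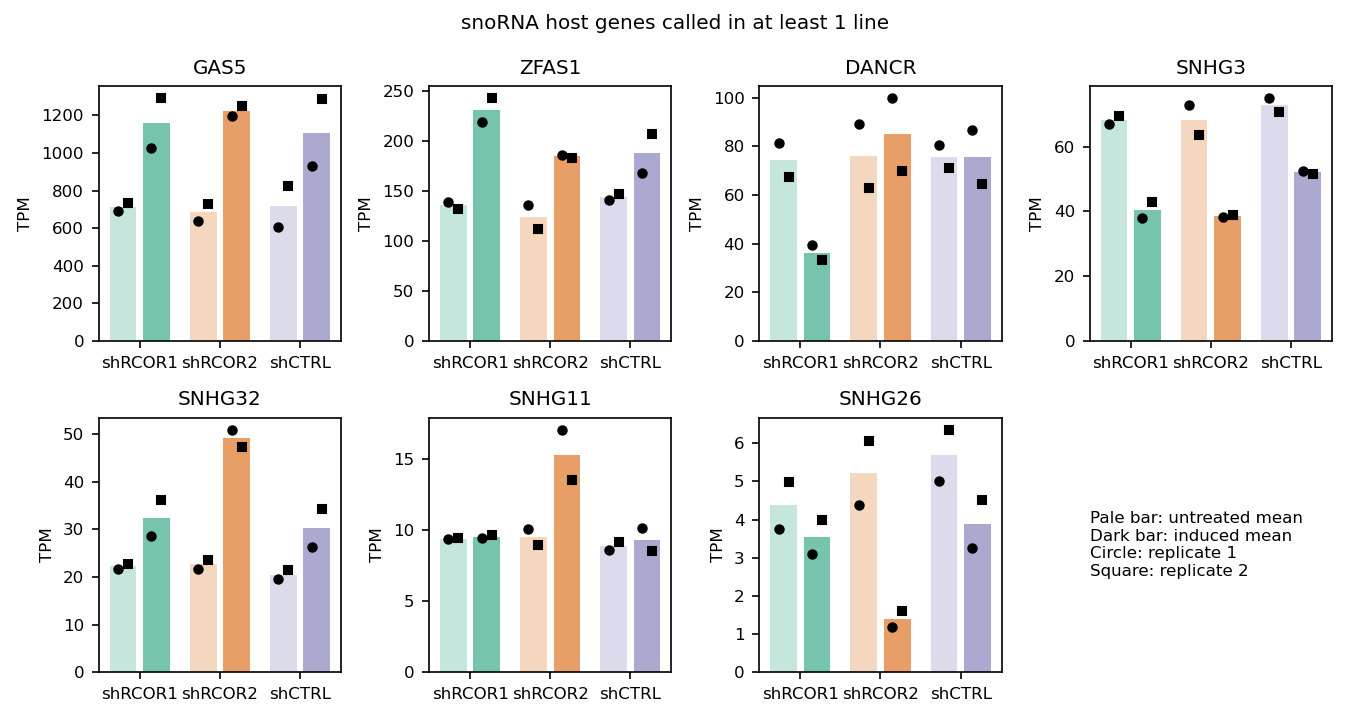
TPM of the 7 host genes called by limma in at least 1 line; bars are group means from 0, circles replicate 1 and squares replicate 2, pale bars untreated and dark bars induced. SNHG3 is lower after induction in all 3 lines, whereas DANCR is lower in induced shRCOR1 cells (39.37 and 33.34 TPM) and SNHG11 higher in induced shRCOR2 cells (17.06 and 13.49 TPM).

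Whether a change differed between lines was tested directly, as the difference of the changes. By limma no host gene was called in any of the 3 such tests. The shRCOR2 minus shCTRL difference was called for 2.09% of all genes tested (0.891% higher, 1.2% lower), shRCOR1 minus shCTRL for 1.28% (0.843% higher, 0.439% lower), and shRCOR2 minus shRCOR1 for 11.2% (5.2% higher, 5.97% lower). At an unadjusted p below 0.05 there were 8, 3 and 6 host genes of 29, beside 17.4%, 14% and 26.3% of all genes tested. The GAS5 change exceeded that of the control line by 0.21 ± 0.28 in shRCOR2 and by 0.07 ± 0.28 in shRCOR1 (limma adjusted p = 0.798 and 0.971). With errors of this size, moderate differences in either direction are not detectable here.

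With the replicate block, which pairs libraries of the same number, 4 host genes differed between shRCOR2 and shCTRL, 1 between shRCOR1 and shCTRL, and 9 between shRCOR2 and shRCOR1. The share of all genes called was then 14.7% (8.93% higher, 5.8% lower), 10.2% (6.59% higher, 3.57% lower) and 30.4% (15.7% higher, 14.7% lower). DANCR had the clearest such difference in shRCOR1, at -1.00 ± 0.33 against shCTRL (limma adjusted p = 0.202, with the block 0.00455). SNHG1 and SNHG7 were lower in the shRCOR2 change than in the control change, by -0.67 ± 0.20 (adjusted p = 0.123 by limma, with the block 0.0117) and -0.81 ± 0.25 (0.143 by limma, with the block 0.00873). Both had separated higher values in induced shCTRL cells and not in induced shRCOR2 cells. SNHG26 differed by -0.91 ± 0.32 from shCTRL (limma adjusted p = 0.182, with the block 0.00804) and by -1.13 ± 0.32 from shRCOR1 (limma adjusted p = 0.0548, with the block 0.00116).

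Replicates of the same number resembled each other across groups, also among these genes. GAS5, SNHG14, SNHG22, SNHG26 and SNHG18 were higher in replicate 2 in all 6 groups. SNHG6, SNHG7, SNHG15, DANCR, SNHG25 and EPB41L4A-AS1 were higher in replicate 1 in all 6. The share of all genes ordered in this way was not counted. Over all genes tested, replicates of the same number also deviated together (correlation 0.37 to 0.75 between groups). The share of TPM from mitochondrial transcripts, 13.3% to 21.4% over the libraries, was also higher in replicate 2 of every group; its part in these values was not tested. DANCR shows the pattern plainly: in shRCOR2 the replicate 1 values were 89.08 and 99.87 TPM and the replicate 2 values 63.07 and 70.08 TPM.

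Some host genes share a start region with a gene on the other strand, and their values beside the partner's are given here because the files' strand setting is unknown. Among the 29 tested genes, 9 have 10 such partners starting within 1000 bases, and 8 of these partners were tested. SNHG1 and SLC3A2, the heavy chain of amino acid transporters that include the cystine importer, start 149 bases apart. SLC3A2 rose in shRCOR1 (151 and 147 TPM untreated, 367 and 410 induced; 1.37 ± 0.14, limma adjusted p = 0.00159). It also rose in shRCOR2 (153 and 143 TPM, then 281 and 233; 0.79 ± 0.14, limma adjusted p = 0.0103), where SNHG1 had 156.7 to 193.2 TPM in the 4 libraries. In shCTRL it had 152 and 174 TPM, then 241 and 307 (0.74 ± 0.14, limma adjusted p = 0.782).

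SNHG9 and RPS2, which encodes a protein of the small ribosomal subunit and is itself a snoRNA host, start 118 bases apart. RPS2 fell in shRCOR2, from 5542 and 5114 TPM to 2953 and 2447 TPM (-0.99 ± 0.16, limma adjusted p = 0.0062). SNHG9 there had 8.682 and 8.615 TPM untreated and 13.54 and 10.5 TPM induced (0.42 ± 0.21, limma adjusted p = 0.227). In shRCOR1 the RPS2 change was -0.01 and SNHG9 had 9.776 and 7.294 TPM, then 6.604 and 5.09 (-0.47 ± 0.21, limma adjusted p = 0.219). In shCTRL SNHG9 had 9.248 and 12.41 TPM, then 8.657 and 6.817. Both induced shRCOR2 libraries lay above their untreated pair for SNHG9 and below it for RPS2.

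**Figure D4:**
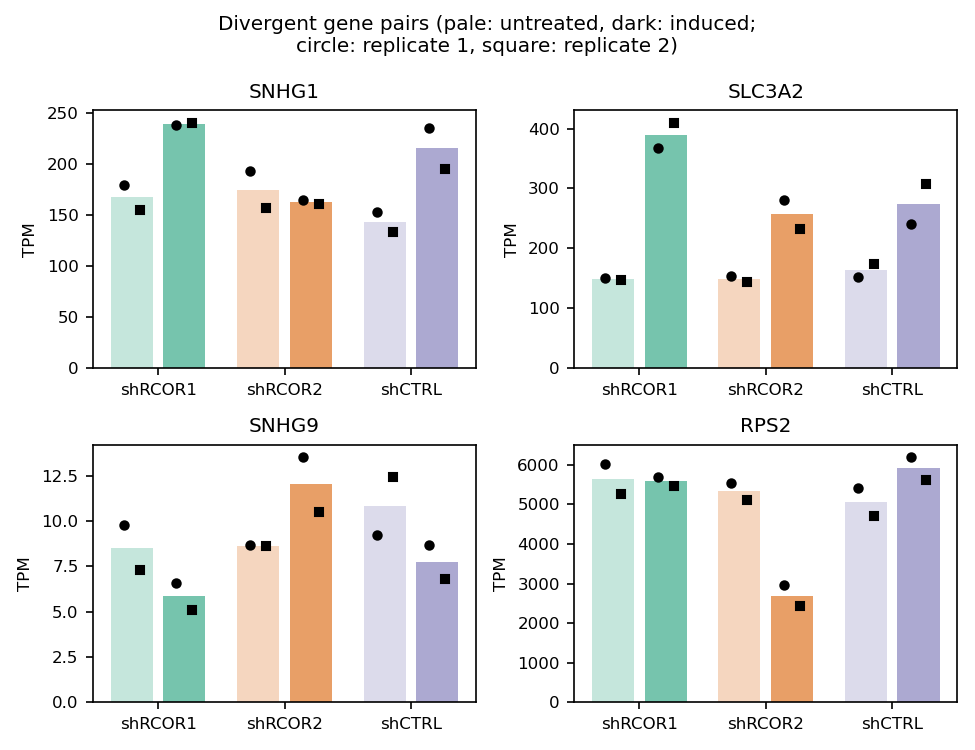
TPM of SNHG1 and SNHG9 (left) and of the genes that start beside them on the other strand, SLC3A2 and RPS2 (right); bars are group means from 0, circles replicate 1 and squares replicate 2. SLC3A2 is higher in every induced group while SNHG1 in shRCOR2 is not, and RPS2 is lower in induced shRCOR2 cells (2953 and 2447 TPM).

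The other 6 tested partners were ZNFX1 (beside ZFAS1, 248 bases between starts), ZBTB37 (GAS5, 800), TRAF7 (SNHG19, 340), ACAA2 (SNHG22, 70), SEMA5A (SNHG18, 125) and AC015802.4 (SNHG16, 81). None of these 6 was called by limma in any line, with adjusted p from 0.0688 to 1. With the block TRAF7 was called in shRCOR1 (-0.29 ± 0.08, limma adjusted p with the block 0.00827) and ACAA2 in shRCOR2 (-0.32 ± 0.12, limma adjusted p with the block 0.0301). Of all 8 tested partners, limma called 2 in shRCOR2 and 1 in shRCOR1, where 14.3% and 8.62% of all genes were called. With the block 3 and 2 of the 8 were called, where 36.2% and 27.4% of all genes were. Further genes overlap the host models themselves: 51 such overlaps, with 19 of the genes tested. In shRCOR1, 3 of these 19 were called by limma, all on the opposite strand, where 8.62% of all genes were called. None was called in shRCOR2, where 14.3% of all genes were, or in shCTRL. With the block 6 were called in shRCOR1, where 27.4% of all genes were, and 3 in shRCOR2, where 36.2% were. In shCTRL 0 were called with the block. ERVMER34-1, beside DANCR, rose from 0.724 and 0.87 TPM to 2.66 and 2.95 TPM (1.08 ± 0.22, limma adjusted p = 0.0215), while DANCR fell. PRSS12, beside SNHG8, rose from 5.44 and 6.2 TPM to 46 and 31.2 TPM (2.51 ± 0.31, limma adjusted p = 0.00278), with SNHG8 at -0.15 ± 0.18. TRNAU1AP, beside SNHG12, fell by 0.39 (limma adjusted p = 0.0492). RCC1 shares a start region and strand with SNHG3, and reads of the pair may be divided between them. RCC1 had 120 and 85.5 TPM untreated and 61.7 and 43.8 TPM induced in shRCOR2 (-0.95 ± 0.36, limma adjusted p = 0.115, with the block 0.00134), 103 and 89.4, then 88.4 and 55.2 TPM in shRCOR1 (-0.45 ± 0.36, limma adjusted p = 0.512, with the block 0.0363), and -0.24 ± 0.36 in shCTRL. SNHG4 lies on the strand of MATR3 and overlaps it, and MATR3 had 345 and 290 TPM, then 260 and 242 TPM in shRCOR2 (-0.34 ± 0.29, limma adjusted p = 0.502).

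The host genes with a TOP start went in both directions. Over the 7 of them, the median log2 change was 0.11 in shRCOR2 (from -0.90 for SNHG4 to 1.08 for SNHG32), 0.04 in shRCOR1 and 0.07 in shCTRL. Over the 18 tested genes whose RefSeq start did not meet the TOP definition used here, it was -0.05, 0.00 and 0.03. They include GAS5, whose RefSeq start lies 163 bases before its gene model. Whether other starts of these genes are TOP starts was not tested. ZFAS1 and SNHG32 rose in shRCOR2, while SNHG5 and SNHG19, whose starts printed above open with the same CTTT, had changes of 0.27 and -0.16.

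Protein-coding genes of the same pathways were counted from 5 lists, and each count stands beside the share of all genes called in that direction. By limma these shares were 7.81% higher and 6.47% lower in shRCOR2, and 4.98% higher and 3.64% lower in shRCOR1. With the block they were 21.4% and 14.8% in shRCOR2, and 15.4% and 12.1% in shRCOR1. In shCTRL 0% were called by limma, and 5.57% passed an unadjusted p below 0.05. Of 21 TOP mRNAs of the translation machinery, 4 rose and 1 fell in shRCOR2 (7.81% and 6.47% of all genes), with a median change of 0.28. These were EIF3L (0.68 ± 0.16, limma adjusted p = 0.0262), EEF2 (0.63 ± 0.13, 0.0176), EIF3H (0.48 ± 0.12, 0.0304) and RACK1 (0.41 ± 0.11, 0.0426) upward and EEF1D (-0.86 ± 0.24, 0.0459) downward. In shRCOR1 2 rose (4.98% of all genes), EEF2 (0.56 ± 0.13) and PABPC1 (0.54 ± 0.12), with a median of 0.22. None was called in shCTRL by limma (4 at an unadjusted p below 0.05; 1 higher with the block), and the median there was also 0.22. With the block 11 rose and 2 fell in shRCOR2 (21.4% and 14.8% of all genes), and 9 rose in shRCOR1 (15.4% of all genes). Leaving out any 1 of the 4 shRCOR2 libraries leaves 0 or 1 of the 4 higher calls in shRCOR2.

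The list of 39 protein-coding snoRNA hosts shares EEF2, RACK1 and EEF1B2 with the TOP mRNAs above. It shares DKC1 and NOP56 with the snoRNA particle proteins below, so these genes are counted in both lists. Of the 39, 4 rose and 6 fell in shRCOR2, beside 7.81% and 6.47% of all genes. With the block 12 rose and 11 fell, beside 21.4% and 14.8% of all genes. Their median change was 0.06. Without any 1 of the 4 shRCOR2 libraries, 0 rose and 3 fell. TOMM20, a subunit of the mitochondrial import receptor, fell most, from 357 and 362 TPM to 134 and 132 TPM (-1.43 ± 0.11, limma adjusted p = 0.000403). RPS2 (-0.99), the nuclear importer IPO7 (-0.80 ± 0.09, limma adjusted p = 0.00177) and RABGGTB (-0.77 ± 0.16, limma adjusted p = 0.015) also fell. Against shCTRL, the difference in change was called by limma for TOMM20 (-1.75 ± 0.16, adjusted p = 0.00361), RPS2 (-1.21 ± 0.22, adjusted p = 0.0367), IPO7 (-0.78 ± 0.13, adjusted p = 0.028) and HSPA9 (-0.75 ± 0.15, adjusted p = 0.0444). These are 0 higher and 4 lower of 39, beside 0.891% and 1.2% of all genes, and with the block 1 was higher and 7 lower, beside 8.93% and 5.8%. In shRCOR1, EEF2 and HSPA9 (0.60 ± 0.10, limma adjusted p = 0.0109) rose and RPL17 fell (-0.66 ± 0.10, limma adjusted p = 0.0071), beside 4.98% higher and 3.64% lower over all genes. With the block 17 rose and 2 fell there (15.4% and 12.1% of all genes), and the median was 0.24. In shCTRL none was called by limma or with the block (9 at an unadjusted p below 0.05 by limma), and the median was 0.22.

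Of 18 proteins that make up or assemble snoRNA particles, 2 fell in shRCOR2 and none rose, beside 6.47% of all genes lower. With the block 4 fell, beside 14.8% of all genes, and 0 fell by limma without any 1 of the 4 shRCOR2 libraries. The median was -0.10. DKC1, the H/ACA pseudouridine synthase, went from 164 and 146 TPM to 107 and 96.1 TPM (-0.61 ± 0.15, limma adjusted p = 0.0308). NAF1, an assembly factor of the same H/ACA particles, went from 29.8 and 32 TPM to 20.4 and 22.3 TPM (-0.51 ± 0.11, limma adjusted p = 0.0161). Both changes differed from those in shRCOR1 (DKC1 by -0.87 ± 0.21, limma adjusted p = 0.0335; NAF1 by -0.67 ± 0.15, limma adjusted p = 0.0239), but the differences from shCTRL were not called (limma adjusted p = 0.318 and 0.226). Of the 18, 0 were higher and 2 lower in shRCOR2 than in shRCOR1 by this test (5.2% and 5.97% of all genes), and with the block 1 and 4 (15.7% and 14.7%). In shRCOR1 none of the 18 was called by limma (1 at an unadjusted p below 0.05; 1 higher and 2 lower with the block; median 0.10). In shCTRL none was called by limma or with the block (0 and 2 at an unadjusted p below 0.05; median -0.15).

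Of 20 factors of nonsense-mediated decay, UPF2 (0.44 ± 0.10, limma adjusted p = 0.0187) and PNRC2 (0.34 ± 0.09, limma adjusted p = 0.0429) rose in shRCOR2, beside 7.81% of all genes. The block gave 9 higher and 2 lower (21.4% and 14.8% of all genes), and the median was 0.17. In shRCOR1 RNPS1 rose (0.52 ± 0.11, limma adjusted p = 0.0254), 1 of 20 beside 4.98% of all genes. The block gave 4 higher and 3 lower (15.4% and 12.1% of all genes), and the median was 0.05. Of 19 tested mRNAs known as targets of that decay, 7 rose and none fell in shRCOR1, beside 4.98% of all genes higher. With the block 9 rose and 1 fell, beside 15.4% and 12.1% of all genes. Without 1 of the 4 shRCOR1 libraries 2 to 4 rose by limma, and the median was 0.06. The largest changes were those of ATF3 (2.15 ± 0.34), DDIT3 (1.95 ± 0.49), ASNS (1.62 ± 0.40) and MAP3K14 (1.38 ± 0.14). Of the leading 4, ATF3, DDIT3 and ASNS are also known genes of the amino acid and unfolded protein stress responses. In shRCOR2 CARS1 rose (0.88 ± 0.16, limma adjusted p = 0.0105), and UAP1 (-0.53 ± 0.09, 0.00705) and SESN1 (-0.46 ± 0.13, 0.0471) fell, beside 7.81% of all genes higher and 6.47% lower. The block gave 9 higher and 4 lower (21.4% and 14.8% of all genes), and the median was 0.22. In shCTRL no gene of either list was called by limma or with the block (1 factor and 6 targets at an unadjusted p below 0.05 by limma), with medians of -0.10 and 0.09.

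The snoRNA gene rows in the files gave little signal of their own. Of 140 named rows that lie inside the host models on the same strand, 15 passed the filter of 1 TPM in 2 libraries. SNORD104, inside SNHG25, had the highest median, 85.2 TPM, and SNORA73B, inside SNHG3, had 13.6 TPM. These rows were not compared between groups.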

How the data were processed

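Total RNA of 12 Kelly libraries was sequenced after directional NEBNext Ultra II preparation, per the labels' protocols. Reads were trimmed with Trim Galore 0.6.7 and went through HISAT2 2.2.1 and StringTie 2.1.7 on GRCh38 (hg38), per the submitters' processing notes. The annotation release, strand setting and multi-mapping rule were not given in the sources used here. The authors deposited TPM for every gene and library, in which each library sums to the same total. The deposited FPKM, scaled to gene length and library size, were tried in their place. Coverage, the mean read depth over a gene, is a deposited signal that was used only to compare depths, through its ratio to FPKM.

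Rows of the 2 gene IDs listed more than once were summed. Genes of at least 1 TPM in at least 2 libraries (16842) were tested on log2(TPM + 1), with a pseudocount of 1, by limma 3.58.1 under R 4.3.3, fitting 6 group means and a variance trend over all 12 libraries. P-values were adjusted by Benjamini-Hochberg over all genes tested, and called below 0.05. Fold changes on this scale understate changes of low genes. Same-numbered replicates deviated together in each of the 15 pairs of groups (correlation of deviations from the group means 0.37 to 0.75). The limma fit of 6 group means did not pair them. Values from a second limma fit with a replicate block, which pairs them, are given beside the results described whose call or count they change. Alternatives were FPKM, a pseudocount of 0.1, no filter, median-of-ratios scaling, the replicate block and leaving out each library.

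Named in full were the 8 host genes of highest mean TPM and the called ones, up to 8 per comparison. From each related list up to 4 called genes per comparison were named, and neighbours were genes starting within 1000 bases on the other strand or overlapping a host gene. The genes described and the related lists were chosen with earlier results of these data known. Sequences were copied from GENCODE v29 transcripts and the RefSeq promoter table, in which 28 of the 32 genes matched.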

Additional observations from a re-analysis of the deposited data

Results flagged for a closer look

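The changes of 10 host genes differed between 2 lines when the difference itself was tested with the replicate block, although limma without the block called none of them. The host genes called with the block were 4, 1 and 9 of 29 in the differences shRCOR2 minus shCTRL, shRCOR1 minus shCTRL and shRCOR2 minus shRCOR1, where 14.7%, 10.2% and 30.4% of all genes were called. With both directions together, the host genes' shares lie close to or below those of all genes. By direction, 0 were higher and 4 lower in shRCOR2 minus shCTRL, beside 8.93% and 5.8% of all genes. In shRCOR1 minus shCTRL 0 were higher and 1 lower (6.59% and 3.57% of all genes), and in shRCOR2 minus shRCOR1 5 and 4 (15.7% and 14.7%). Relative to shCTRL, the shRCOR2 change was lower for SNHG1 (-0.67 on the log2 scale), SNHG7 (-0.81), SNHG25 (-0.68) and SNHG26 (-0.91), with blocked limma adjusted p from 0.00804 to 0.0299. The shRCOR1 change was lower than the shCTRL change for DANCR (-1.00, blocked limma adjusted p = 0.00455).

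Between the knockdown lines, the shRCOR2 change was above the shRCOR1 change for DANCR (1.17, blocked limma adjusted p = 0.000652), SNHG9 (0.90, 0.03), SNHG11 (0.61, 0.0264), SNHG32 (0.56, 0.0306) and SNHG15 (0.53, 0.027). It was below for SNHG26 (-1.13, 0.00116), SNHG4 (-0.85, 0.0479), SNHG1 (-0.61, 0.00683) and SNHG7 (-0.47, 0.0318). Without the block the adjusted p for these 14 differences ran from 0.0544 to 0.438.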

How the results depend on the processing

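The calls of SNHG3 in both knockdown lines and of SNHG32 in shRCOR2 held under FPKM, a pseudocount of 0.1, no filter, median-of-ratios scaling, the replicate block and every left-out library. None of the host genes called in a line changed direction under these settings. The share of all genes called was counted only for limma with and without the block. Under the other settings, whether a count of host genes moved with the calls over all genes was therefore not tested. The host genes' median changes stayed between -0.12 and 0.19 with a library left out and crossed 0 in 5 of the 6 comparisons. In shRCOR2 the 4 higher host genes became 7 with the replicate block and 1 to 4 when 1 library was left out, and the 2 lower ones became 6 with the block and 1 to 3. In shRCOR1 the 1 higher host gene became 3 with median-of-ratios scaling, 7 with the block and 0 to 5 with a library left out (0 without untreated replicate 1, untreated replicate 2 or induced replicate 2 of shRCOR1, and 5 without either induced shCTRL library). The 2 lower ones there became 1 with no filter, 1 with median-of-ratios scaling and 1 to 2 with a library left out, and stayed 2 with the block. Between lines, where limma called 0, the block called 4 lower in shRCOR2 than in shCTRL, 1 lower in shRCOR1 than in shCTRL, and 5 higher and 4 lower in shRCOR2 than in shRCOR1. In the last comparison FPKM called 2 higher, a pseudocount of 0.1 called 1 lower, median-of-ratios scaling 1 lower, and leaving out either induced shCTRL library 1 higher and 1 lower, so both ranged from 0 to 1. With no filter, GAS5 in shRCOR2 had a limma adjusted p of 0.0674 and DANCR in shRCOR1 one of 0.0736. With median-of-ratios scaling SNHG11 in shRCOR2 had 0.066 and DANCR 0.0584. The SNHG26 change in shRCOR2 ran from -0.97 with FPKM to -1.83 with a pseudocount of 0.1. The cause of these shifts was not tested. With 2 libraries per group and no read counts, counting error cannot be given.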
